A study of Mus musculus with 12 samples.

Results

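The genes of mitochondrial and peroxisomal fatty acid oxidation were followed as 36 genes chosen by symbol among the 54532 genes counted in mouse colon RNA. They were sorted by step into uptake and activation (7 genes), the carnitine shuttle (5), the mitochondrial acyl-CoA dehydrogenases (4), mitochondrial hydration to thiolysis (5), the auxiliary enzymes for unsaturated chains (4), electron transfer to the respiratory chain (3) and peroxisomal oxidation (8). Of the 36 genes, 35 had enough counts to be tested and Cpt1b did not. RNA of colon tissue came from male C57BL/6 mice that were 6 weeks old on arrival, with 3 tissue samples from each of 4 groups. The Con group received vehicle, and the DSS group received vehicle and 3% dextran sulfate sodium, a polymer that injures the colon epithelium, in the drinking water for 5 days. The UA+DSS group received the same DSS with 200 mg/kg of ursolic acid, a plant triterpenoid, by gavage once a day for 7 days from 24 hours before DSS. The DSS+UA group received that dose for 4 days from 3 days after the start of DSS. No group received ursolic acid without DSS, so an effect of the compound on healthy colon cannot be told apart from its effect during DSS.

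Fatty acids enter a cell with the help of carriers and are activated to acyl-CoA by long-chain acyl-CoA synthetases. Long chains cross into mitochondria as carnitine esters and are shortened by repeated dehydrogenation, hydration, a second dehydrogenation and thiolysis, with electrons passed to the respiratory chain, while peroxisomes shorten very long and branched chains and pass the products on. Surface colonocytes are known to burn fatty acids, above all butyrate made by bacteria, and PPARα and PGC-1α are known to drive the transcription of many of these genes.

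The deposited values were whole-number counts per gene, and total counts were 15566216 to 19498383 per library. Values are given as CPM, the count of a gene scaled to a common library size with TMM factors, in the order of replicates 1, 2 and 3, and p-values come from the quasi-likelihood test of edgeR, with the Benjamini-Hochberg method applied to 17658 genes. A gene is called raised or lowered when the adjusted p is under 0.05. Markers of colonocytes were detected in all 12 libraries, with summed levels of 12500 to 18100 CPM in Con, 5910 to 10900 in DSS, 13800 to 15700 in UA+DSS and 12700 to 21400 in DSS+UA. Con 1 stood apart from the other Con libraries by a colon position score, the mean log2 CPM of 5 Hox genes of the rectal end minus that of 6 Hox genes of the caecal end, which was 5.52 in Con 1 and -3.02 and -1.83 in the other two. The score was 0.37 to 3.10 in DSS, -5.70 to -4.16 in UA+DSS and 4.12 to 5.06 in DSS+UA. UA+DSS did not overlap Con, DSS or DSS+UA, and DSS+UA did not overlap DSS. In these comparisons treatment and position cannot be told apart. DSS 2 had the highest summed neutrophil markers, at 17700 CPM against 600 and 794 in the other DSS libraries, and DSS 3 held 12500 CPM of pancreatic acinar markers against 87.7 and 30.7.

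Promoter windows from 250 bases before to 50 bases after the start of a gene, from RefSeq on GRCm38.p6, matched 31 of the 36 genes in 33 windows. 4 of them are shown because their genes moved together or in opposite directions: Acadm (medium-chain acyl-CoA dehydrogenase, chr3:153944594-153944893, minus strand), Hadhb (β subunit of the mitochondrial trifunctional protein, chr5:30155003-30155302, plus strand), Ehhadh (the peroxisomal bifunctional enzyme, chr16:21787785-21788084, minus strand) and Acsl4 (the activating enzyme that prefers arachidonate, chrX:142390486-142390785, minus strand). Each is written 5′ to 3′ on the strand of its gene. Capitals mark AGGTCA, the half-site of nuclear receptors, in Acadm, and GGGCGG, the GC box, in the other three, on either strand.
Acadm: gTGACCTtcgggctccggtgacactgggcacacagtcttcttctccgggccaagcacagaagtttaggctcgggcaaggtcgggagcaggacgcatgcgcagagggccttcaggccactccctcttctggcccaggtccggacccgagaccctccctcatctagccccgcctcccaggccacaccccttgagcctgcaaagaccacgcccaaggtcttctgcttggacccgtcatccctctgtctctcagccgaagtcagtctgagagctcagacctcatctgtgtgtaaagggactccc
Hadhb: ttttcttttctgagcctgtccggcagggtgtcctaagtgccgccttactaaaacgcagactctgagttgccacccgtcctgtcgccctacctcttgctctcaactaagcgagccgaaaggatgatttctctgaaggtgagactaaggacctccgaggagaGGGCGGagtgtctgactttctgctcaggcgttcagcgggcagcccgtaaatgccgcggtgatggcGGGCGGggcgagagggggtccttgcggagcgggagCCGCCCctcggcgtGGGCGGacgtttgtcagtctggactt
Ehhadh: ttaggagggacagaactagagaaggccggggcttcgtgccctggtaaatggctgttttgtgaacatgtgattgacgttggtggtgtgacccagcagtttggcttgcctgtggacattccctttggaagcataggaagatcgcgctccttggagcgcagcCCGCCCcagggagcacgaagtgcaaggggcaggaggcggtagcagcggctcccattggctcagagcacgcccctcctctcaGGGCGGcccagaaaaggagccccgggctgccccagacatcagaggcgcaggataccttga
Acsl4: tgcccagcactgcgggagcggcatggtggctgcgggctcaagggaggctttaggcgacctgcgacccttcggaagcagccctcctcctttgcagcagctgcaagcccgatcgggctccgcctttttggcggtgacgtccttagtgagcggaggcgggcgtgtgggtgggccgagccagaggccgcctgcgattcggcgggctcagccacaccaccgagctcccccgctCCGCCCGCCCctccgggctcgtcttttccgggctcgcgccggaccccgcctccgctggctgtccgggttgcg
The GC box was in 25 of the 33 windows (75.8%) and in 35.7% of all 32851 promoter windows, and the window of Acsl4, the gene raised in DSS, held it, as did that of Ehhadh, a lowered gene, while that of Acadm, also lowered, did not. In Acsl4 a pair of GC boxes overlapped, so they appear as 1 run of capitals. AGGTCA was in 7 of the 33 windows (21.2%, against 16.3% of all windows), in Acadm, Acadvl, Cd36, Cpt1a, Echs1, Scp2 and Slc27a2. CCAAT was in 13 windows (39.4%, against 37.4%). The PPAR element, a direct repeat of AGGTCA with 1 base between the copies, was in 0 of the 33 windows and in 0.0396% of all windows, and a looser form built from AGGNCA, with any base at N, was in 0 and 0.381%, which says only that these letters were not in these 300 bases. Hadha and Hadhb, which encode the subunits of 1 enzyme, are read in opposite directions from starts 273 bases apart, and their windows shared 228 bases.

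In DSS against Con, 13 of the 35 tested genes were lowered and 1 was raised (37.1% lowered, against 12.6% lowered and 13.9% raised among all tested genes). The lowered genes were Acsl3, Cpt1a, Acadm, Hadh, Acaa2, Echs1, Eci1, Ech1, Etfb, Ehhadh, Acaa1a, Decr2 and Pex11a, which reach from activation to the peroxisome, and the raised gene was Acsl4. The median log2 fold change of the 35 genes was -0.49, against -0.03 over all genes, and 27 of 35 values were below 0 (51.9% of all genes). Without overlap between libraries, DSS lay below Con for 16 genes and above it for 4 (20.1% and 21.2% of all genes). In UA+DSS against DSS, 19 of the 35 genes were raised and 1 was lowered (54.3% raised, against 8.21% raised and 10.5% lowered among all genes), with a median of 0.93 against -0.02 and 30 values above 0 (48.8% of all genes). UA+DSS lay above DSS without overlap for 24 genes and below it for 3 (21.1% and 21.7% of all genes). In DSS+UA against DSS, 1 gene was raised (Etfb) and 3 were lowered (Cd36, Acsl4 and Acadsb), against 2.54% and 5.0% of all genes, with a median of 0.38 against 0.02 and 27 values above 0 (51.3% of all genes). DSS+UA lay above DSS without overlap for 7 genes and below it for 3 (18.3% and 16.4% of all genes). These comparisons share the DSS libraries and are not independent of each other.

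The call counts rested on single libraries to different degrees. In DSS against Con, 5 genes were called without Con 2, 8 without DSS 1, 7 in a fit of those groups alone and 14 with the position score as a covariate. In UA+DSS against DSS, only Acsl4 and Ehhadh were called without UA+DSS 2, while 12 were called without DSS 1 and 13 each without DSS 2 or UA+DSS 3. With the position score as a covariate edgeR called 0 of the 35 genes there and 3 of all genes, the median log2 fold change was 0.47 in place of 0.93, 25 of 35 values were above 0 and 11 of the 35 genes (3818 of all genes) had an unadjusted p under 0.05. In DSS+UA against DSS, edgeR called 0 genes without DSS+UA 3 (10 at an unadjusted p under 0.05), 1 without DSS+UA 2, 2 each without Con 2, DSS 1, DSS 2, UA+DSS 1 or UA+DSS 3, and 7 by DESeq2. Scaled by library size alone, the calls of all genes in that comparison split into 140 raised and 1003 lowered (448 and 883 with TMM), and the median over all genes was -0.11 in place of 0.02.

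**Figure D1:**
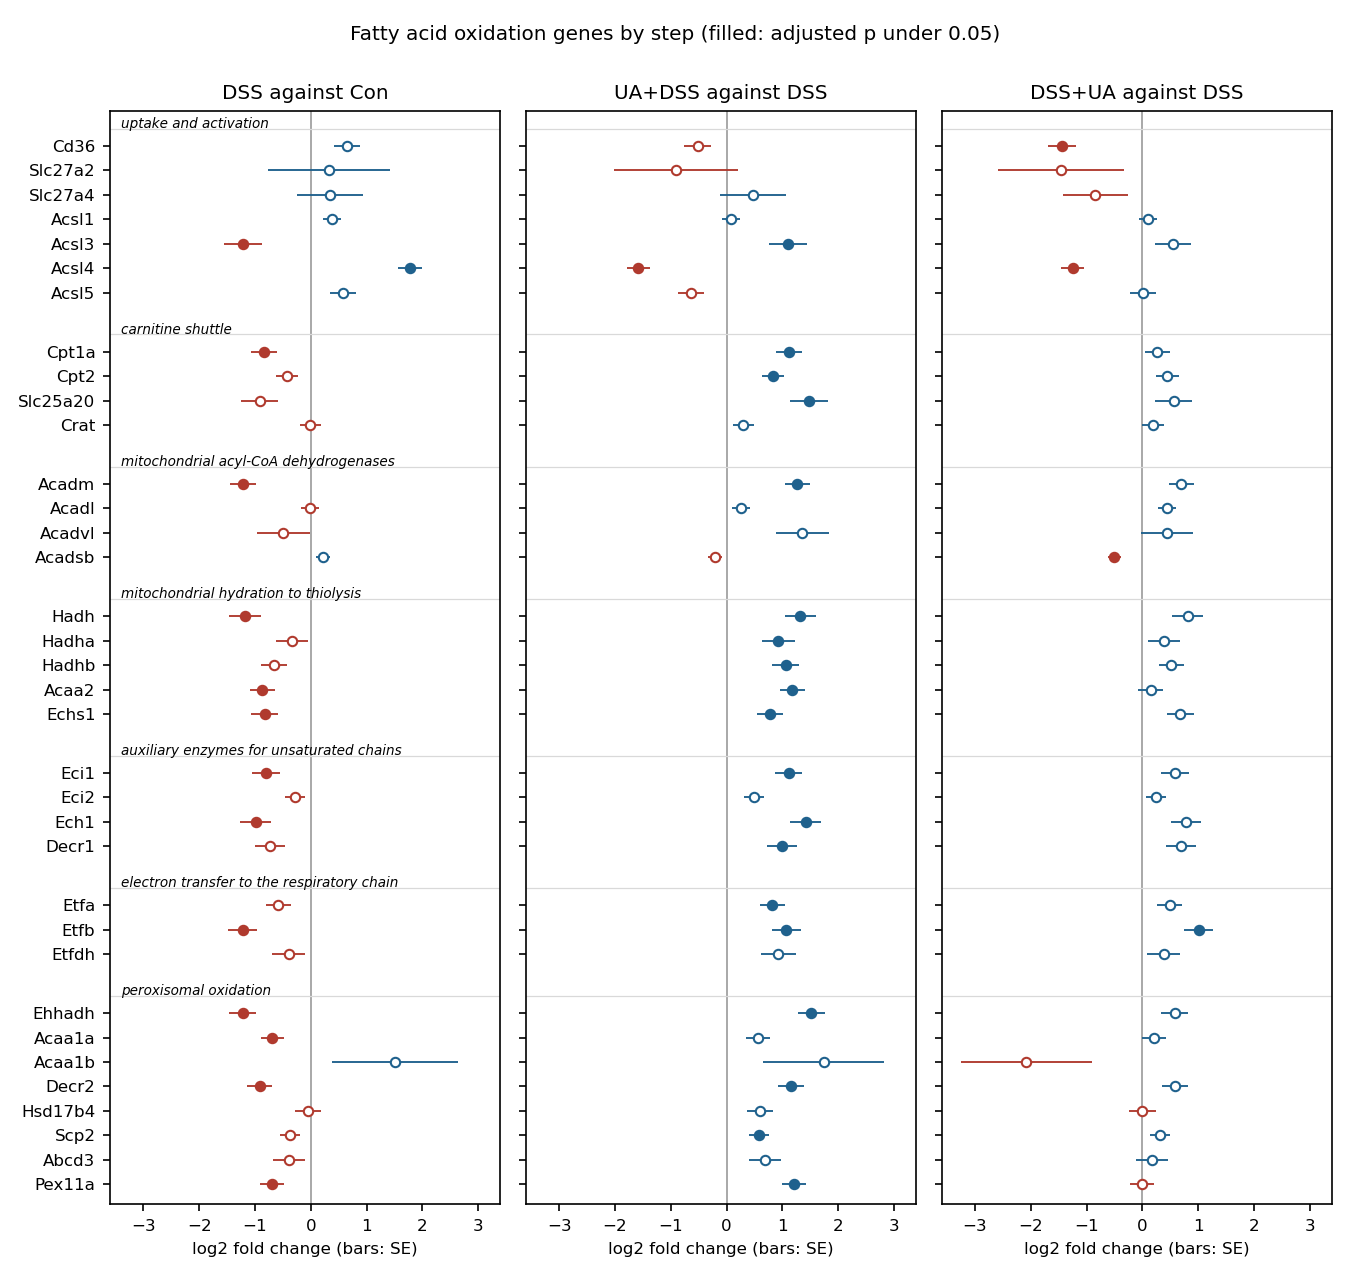
log2 fold change (x axis, log2 units) of the 35 tested genes (y axis, grouped by step) in DSS against Con, UA+DSS against DSS and DSS+UA against DSS. Bars are standard errors, filled points have an edgeR adjusted p under 0.05, and blue is higher and red lower in the first-named group: 19 points are filled blue in UA+DSS against DSS and 1 in DSS+UA against DSS.

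The genes of uptake and activation did not move one way. Of its 7 genes, 6 had a log2 fold change above 0 in DSS against Con, with Acsl4 called raised and Acsl3 called lowered. Acsl4, the synthetase that channels arachidonate and other polyunsaturated chains into phospholipids, was at 25.3, 29.2 and 30.9 CPM in the Con libraries, 83.5, 107 and 102 in DSS, 41.0, 23.6 and 33.0 in UA+DSS and 44.9, 33.5 and 44.7 in DSS+UA. All 3 DSS libraries lay above the other 9. Acsl4 was 3.42-fold higher in DSS than in Con (log2 1.78, SE 0.21, adjusted p = 0.00132), and fell by 1.58 on the log2 scale in UA+DSS (adjusted p = 0.00628) and by 1.25 in DSS+UA (adjusted p = 0.0134) against DSS. The calls in DSS against Con and in UA+DSS against DSS were kept in each of 21 other settings, and with the position score the latter gave -1.76 (SE 0.32, adjusted p = 0.0703).

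Acsl3, a synthetase of the endoplasmic reticulum and lipid droplets, went the opposite way. It was at 169, 250 and 196 CPM in the Con libraries, 83.7, 47.0 and 135 in DSS, 142, 242 and 185 in UA+DSS and 108, 139 and 142 in DSS+UA. DSS lay below Con and UA+DSS without overlap, with a log2 fold change of -1.21 (SE 0.34, adjusted p = 0.0241) against Con and of 1.10 (SE 0.34, adjusted p = 0.0437) for UA+DSS against DSS, and in DSS+UA it was 0.55 (adjusted p = 0.293). A stretch of 244 exonic bases of Acsl3 overlaps Utp14b on the same strand. Within each library the count ratio of Acsl3 to Acsl4 averaged 7.18 in Con, 0.922 in DSS, 6.44 in UA+DSS and 3.25 in DSS+UA, a pair chosen after the values were seen and given without a test.

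Cd36, the membrane carrier of long-chain fatty acids, was at 32.1, 20.2 and 25.0 CPM in the Con libraries, 50.1, 39.4 and 31.6 in DSS, 27.4, 36.6 and 20.5 in UA+DSS and 16.0, 14.8 and 14.0 in DSS+UA. The 3 DSS+UA libraries were the lowest of the 12. Cd36 was lowered in DSS+UA against DSS (log2 fold change -1.44, SE 0.25, adjusted p = 0.0147) and against Con (-0.79, SE 0.25, adjusted p = 0.0471), and was not called in DSS against Con (0.65, adjusted p = 0.0716) or UA+DSS against DSS (-0.52, adjusted p = 0.156). Cd36 is also expressed by macrophages and adipocytes. The 6 macrophage markers summed to 162 to 408 CPM in Con, 1100 to 3570 in DSS, 276 to 584 in UA+DSS and 430 to 1030 in DSS+UA, and the 6 adipocyte markers to 0.207 to 48.4, 33.1 to 170, 33.5 to 141 and 5.95 to 36.5 in the same order, with Adipoq, Plin1, Lep and Retn each at 0 in at least 1 library. Their part in the Cd36 values was not tested.

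The other 4 genes of this step were not called in any of the 6 comparisons between groups. Acsl1, the main synthetase of oxidative tissues, ranged from 22.6 to 30.5 CPM in Con and from 32.8 to 36.6 in DSS. Acsl5, the synthetase of the intestinal epithelium, was at 133 to 256 CPM in DSS and 106 to 122 in UA+DSS. It overlaps Zdhhc6 on the opposite strand over 404 exonic bases, and the use of strand in counting is not known. Slc27a4, the fatty acid transport protein of enterocytes, varied widely within groups, from 25.7 to 111 CPM in Con and from 34.4 to 173 in DSS. Slc27a2, a very-long-chain synthetase and carrier, was at 30.2 CPM in DSS 2 and at 0.673 and 1.80 in the other DSS libraries, and without DSS 2 its log2 fold change against Con turned from 0.33 to -2.81 (SE 0.77, adjusted p = 0.0294).

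The carnitine shuttle, which carries long chains across the mitochondrial membranes, had 4 tested genes, all with a log2 fold change below 0 in DSS against Con and above 0 in both comparisons of ursolic acid with DSS. Cpt1a, the carnitine palmitoyltransferase of the outer membrane that limits the rate of entry, was at 184, 344 and 239 CPM in the Con libraries, 125, 141 and 161 in DSS, 265, 340 and 323 in UA+DSS and 143, 180 and 193 in DSS+UA. DSS and DSS+UA libraries reached at most 193 CPM, UA+DSS began at 265, and Con 1 was within the range of DSS+UA. Cpt1a was lowered in DSS against Con (log2 fold change -0.84, SE 0.23, adjusted p = 0.0219) and raised in UA+DSS against DSS (1.12, SE 0.23, adjusted p = 0.0137), whereas DSS+UA against DSS gave 0.27 (SE 0.23, adjusted p = 0.449). UA+DSS was above DSS+UA by 0.85 (SE 0.23, adjusted p = 0.0307), a difference that was 0.03 (adjusted p = 0.984) with the position score.

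The muscle isoform Cpt1b was at 0.414, 0.166 and 0.107 CPM in the Con libraries, 0.144, 0.651 and 0 in DSS, 0.192, 0.312 and 0.106 in UA+DSS and 0.0527, 0 and 0 in DSS+UA. It was at or near 0 in every library and was left out by the filter on low counts. Of its stretches of 50 bases, 78.6% are shared with Gm44502, and how reads matching both were counted is not known. Cpt2, the inner-membrane transferase, was at 61.4, 97.8 and 59.8 CPM in the Con libraries, 50.3, 49.6 and 62.2 in DSS, 83.3, 96.6 and 109 in UA+DSS and 65.9, 77.8 and 78.0 in DSS+UA. Slc25a20, the carnitine-acylcarnitine translocase, was at 147, 206 and 130 CPM in the Con libraries, 106, 79.8 and 69.9 in DSS, 244, 272 and 192 in UA+DSS and 68.1, 191 and 118 in DSS+UA. UA+DSS lay above DSS without overlap for both, with log2 fold changes of 0.83 (SE 0.20, adjusted p = 0.0200) for Cpt2 and 1.47 (SE 0.34, adjusted p = 0.0169) for Slc25a20, and neither was called in DSS against Con (adjusted p = 0.128 and 0.0614). Crat, which transfers acetyl groups to carnitine, was at 38.2 to 52.4 CPM over the Con and DSS libraries together and at 40.8 to 61.6 over the others, and was called nowhere. Its exons overlap Gm16323 and Dolpp1 on the opposite strand over 470 bases.

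The mitochondrial acyl-CoA dehydrogenases take the first oxidative step and differ in the chain length they accept. Acadm, for medium chains, was at 174, 198 and 153 CPM in the Con libraries, 72.2, 58.6 and 94.8 in DSS, 145, 219 and 180 in UA+DSS and 93.9, 145 and 127 in DSS+UA. Every DSS library was below every Con and UA+DSS library, and DSS+UA lay below Con and overlapped DSS through DSS+UA 1. Acadm fell by 1.22 on the log2 scale in DSS against Con (SE 0.23, adjusted p = 0.00536) and was 2.41-fold higher in UA+DSS than in DSS (log2 1.27, SE 0.23, adjusted p = 0.0104), while DSS+UA against DSS gave 0.70 (SE 0.23, adjusted p = 0.0776). The fall in DSS was called in each of 21 other settings and was -1.20 (adjusted p = 0.00727) with the position score.

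Acadl, for long chains, did not share this pattern. It was at 178, 192 and 146 CPM in the Con libraries, 195, 149 and 164 in DSS, 186, 210 and 212 in UA+DSS and 207, 239 and 246 in DSS+UA. The log2 fold change was -0.02 (SE 0.16, adjusted p = 0.929) in DSS against Con and 0.26 (SE 0.16, adjusted p = 0.293) in UA+DSS against DSS, and DSS+UA lay above DSS without overlap at 0.44 (SE 0.16, adjusted p = 0.101). Within libraries the count ratio of Acadm to Acadl was 0.974 to 1.04 in Con, 0.369 to 0.577 in DSS, 0.780 to 1.04 in UA+DSS and 0.454 to 0.608 in DSS+UA, again a pair chosen after the values were seen. Acadsb, for short branched chains, was at 44.0, 43.2 and 44.8 CPM in the Con libraries, 50.1, 47.2 and 56.1 in DSS, 47.0, 42.0 and 43.8 in UA+DSS and 35.1, 34.5 and 38.9 in DSS+UA. It was lowered in DSS+UA against DSS by 0.50 on the log2 scale (SE 0.12, adjusted p = 0.0354).

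Acadvl, for very long chains, was at 20.7 CPM in Con 1 and at 96.8 and 76.4 in the other Con libraries. DSS ranged from 30.1 to 65.7 and UA+DSS from 101 to 136, and the latter difference was not called (log2 fold change 1.36, SE 0.48, adjusted p = 0.0693). Acadvl overlaps Dvl2 on the opposite strand over 1151 exonic bases, and the use of strand in counting is not given in the sources used here.

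The next steps, hydration, the second dehydrogenation and thiolysis, were the step in which all genes were called in UA+DSS against DSS. There 5 of 5 were raised (100%, against 8.21% of all genes), with 3 of 5 lowered in DSS against Con (60.0%, against 12.6%). In DSS+UA against DSS edgeR called 0 of them, with 3 at an unadjusted p under 0.05, as were 5274 of all 17658 genes. Hadh, the short-chain 3-hydroxyacyl-CoA dehydrogenase, was at 270, 380 and 273 CPM in the Con libraries, 134, 96.5 and 175 in DSS, 272, 411 and 330 in UA+DSS and 169, 282 and 259 in DSS+UA. Acaa2, the mitochondrial thiolase, was at 124, 158 and 115 CPM in the Con libraries, 62.9, 74.7 and 79.1 in DSS, 121, 217 and 153 in UA+DSS and 67.7, 87.4 and 85.9 in DSS+UA. Echs1, the short-chain hydratase, was at 154, 208 and 156 CPM in the Con libraries, 109, 61.9 and 121 in DSS, 159, 176 and 165 in UA+DSS and 128, 181 and 159 in DSS+UA. For all 3 genes every DSS library was below every Con library and every UA+DSS library. Log2 fold changes in DSS against Con were -1.18 for Hadh (SE 0.28, adjusted p = 0.0114), -0.87 for Acaa2 (SE 0.22, adjusted p = 0.0158) and -0.83 for Echs1 (SE 0.24, adjusted p = 0.0276). The same genes gave 1.32 (adjusted p = 0.0139), 1.18 (adjusted p = 0.0112) and 0.78 (adjusted p = 0.0440) in UA+DSS against DSS. Echs1 in DSS+UA was above DSS without overlap, at 0.68 (adjusted p = 0.0910), whereas Acaa2 was at 0.15 (adjusted p = 0.668) and was the only one of the 3 that was lowered in DSS+UA against Con (-0.72, adjusted p = 0.0436).

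Hadha and Hadhb, the subunits of the trifunctional protein whose promoter windows overlap, were raised together in UA+DSS. Hadha was at 129, 313 and 240 CPM in the Con libraries, 192, 141 and 207 in DSS, 278, 372 and 378 in UA+DSS and 199, 250 and 257 in DSS+UA. Hadhb was at 113, 182 and 129 CPM in the Con libraries, 89.2, 70.8 and 109 in DSS, 158, 219 and 183 in UA+DSS and 103, 149 and 135 in DSS+UA. In Hadha the lowest library of all was Con 1, below every DSS library, so DSS and Con overlapped. UA+DSS against DSS gave log2 fold changes of 0.93 (SE 0.29, adjusted p = 0.0466) for Hadha and 1.06 (SE 0.24, adjusted p = 0.0158) for Hadhb, and DSS against Con gave -0.34 (adjusted p = 0.403) and -0.66 (adjusted p = 0.0578). Their count ratio within a library was 1.14 in Con 1 and 1.68 to 2.15 in the other 11, and 19.7% of the 50-base stretches of Hadhb are shared with Gm13910, Gm9108 and Churc1.

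Unsaturated chains need auxiliary enzymes that move or reduce double bonds. Ech1, a dienoyl-CoA isomerase, was at 160, 244 and 165 CPM in the Con libraries, 100, 76.5 and 109 in DSS, 209, 334 and 225 in UA+DSS and 123, 222 and 150 in DSS+UA. Eci1, an enoyl-CoA isomerase, was at 60.4, 64.8 and 57.3 CPM in the Con libraries, 40.6, 23.0 and 41.0 in DSS, 59.8, 98.8 and 67.0 in UA+DSS and 43.7, 61.4 and 51.2 in DSS+UA. Decr1, the mitochondrial dienoyl-CoA reductase, was at 51.5, 100 and 68.7 CPM in the Con libraries, 45.6, 34.6 and 52.8 in DSS, 82.4, 98.5 and 84.0 in UA+DSS and 51.7, 91.7 and 72.7 in DSS+UA. All 3 were raised in UA+DSS against DSS, without overlap, by 1.42 (SE 0.28, adjusted p = 0.0122), 1.11 (SE 0.25, adjusted p = 0.0162) and 0.99 (SE 0.27, adjusted p = 0.0290) on the log2 scale. Ech1 and Eci1 were lowered in DSS against Con, by log2 fold changes of -0.99 (adjusted p = 0.0232) and -0.80 (adjusted p = 0.0347), and Decr1 was not called (-0.73, adjusted p = 0.0648). Eci2, found in both organelles, was not called in any comparison and ranged from 30.7 to 65.5 CPM over the 12 libraries.

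Electrons from the dehydrogenases reach ubiquinone through the 2 subunits of the electron transfer flavoprotein and its dehydrogenase Etfdh. Etfb, the β subunit, was at 21.5, 19.0 and 15.9 CPM in the Con libraries, 8.37, 8.92 and 6.81 in DSS, 14.6, 22.4 and 13.8 in UA+DSS and 11.4, 19.5 and 17.6 in DSS+UA. It was the one gene of the set called in all 3 comparisons in the pattern low in DSS: -1.22 against Con (SE 0.26, adjusted p = 0.00780), 1.07 in UA+DSS (SE 0.26, adjusted p = 0.0197) and 1.01 in DSS+UA (SE 0.26, adjusted p = 0.0422) against DSS. The last call was lost in 13 of 21 other settings. Of the 50-base stretches of Etfb, 44.8% are shared, chiefly with Gm45233 on the same strand, so its counts are uncertain. Etfa, the α subunit, was at 135, 240 and 168 CPM in the Con libraries, 122, 97.5 and 144 in DSS, 206, 230 and 205 in UA+DSS and 146, 192 and 174 in DSS+UA. It was raised in UA+DSS against DSS (0.82, SE 0.22, adjusted p = 0.0296) and not called in DSS against Con (-0.58, adjusted p = 0.0746). Etfdh was at 42.6 to 85.7 CPM in DSS and 101 to 134 in UA+DSS, which was not called (0.93, adjusted p = 0.0539).

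**Figure D2:**
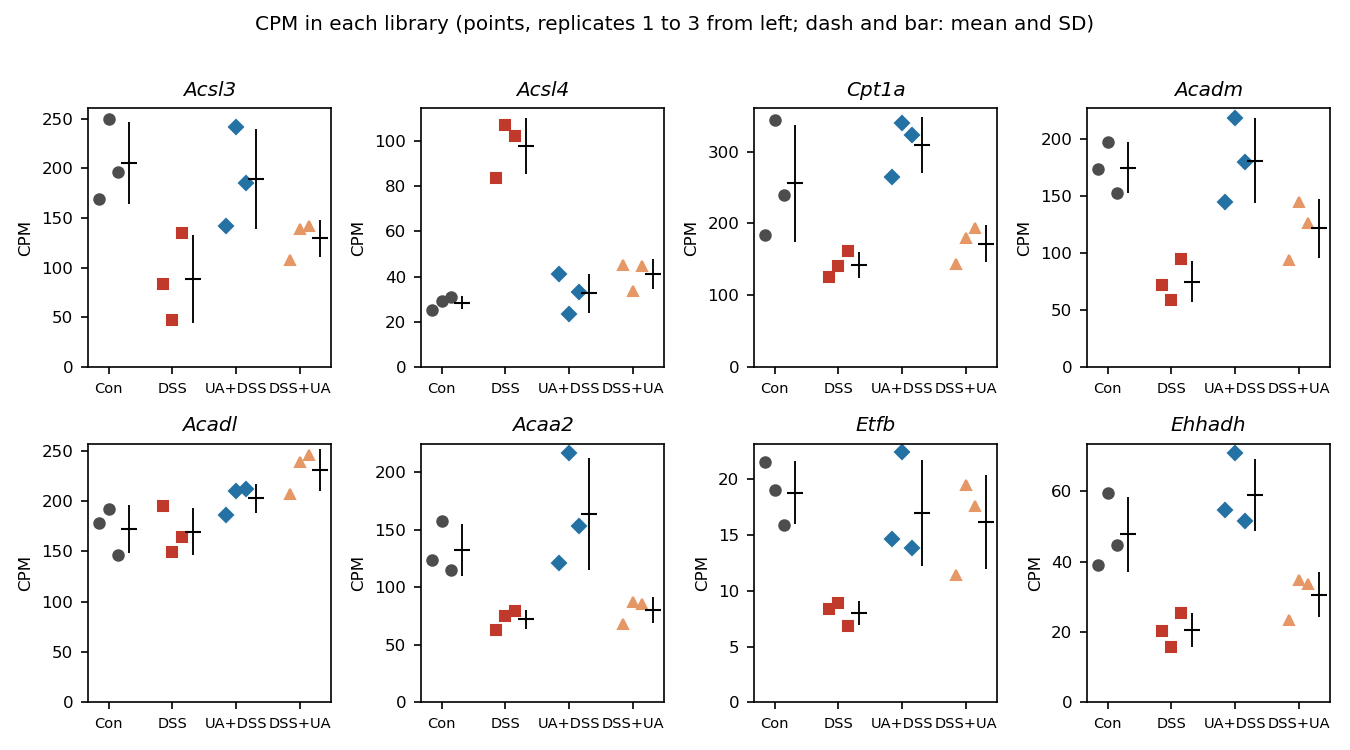
CPM (y axis, from 0) of 8 genes in each of the 12 libraries, with replicates 1 to 3 from left in each group (x axis, Con first and DSS+UA last). Dashes and bars are mean and SD of 3 libraries: Acsl4 is at 83.5 to 107 CPM in DSS and at most at 44.9 elsewhere, Acadm, Acaa2, Etfb and Ehhadh have DSS below Con and UA+DSS, and Acadl overlaps between Con and DSS.

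Of the 8 peroxisomal genes, 4 were lowered and 0 raised in DSS against Con, against 12.6% and 13.9% of all genes. In UA+DSS against DSS 4 were raised and 0 lowered, against 8.21% and 10.5% of all genes. In DSS+UA against DSS edgeR called 0, with 2 at an unadjusted p under 0.05, as were 5274 of all 17658 genes. Ehhadh, the bifunctional hydratase and dehydrogenase for straight chains and a classical PPARα target, was at 39.0, 59.6 and 44.7 CPM in the Con libraries, 20.4, 15.7 and 25.5 in DSS, 54.7, 70.7 and 51.5 in UA+DSS and 23.3, 34.8 and 33.7 in DSS+UA. It had DSS below Con and UA+DSS without overlap, and UA+DSS above all DSS+UA libraries. Ehhadh fell by 1.22 on the log2 scale in DSS against Con (SE 0.24, adjusted p = 0.00576) and was 2.87-fold higher in UA+DSS than in DSS (log2 1.52, SE 0.24, adjusted p = 0.00825). Both calls were kept in 21 other settings, and with the position score they were -1.12 (adjusted p = 0.00717) and 1.12 (SE 0.32, adjusted p = 0.122). DSS+UA against DSS gave 0.58 (SE 0.24, adjusted p = 0.131).

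Hsd17b4, the other bifunctional enzyme, which handles branched chains and bile acid precursors, was not called in any comparison. It ranged from 49.6 to 93.2 CPM in Con, from 59.5 to 85.2 in DSS, from 98.3 to 120 in UA+DSS and from 54.9 to 78.1 in DSS+UA. Within libraries the count ratio of Ehhadh to Hsd17b4 was 0.609 to 0.786 in Con, 0.264 to 0.316 in DSS, 0.523 to 0.588 in UA+DSS and 0.425 to 0.457 in DSS+UA, with no overlap between any of the groups. Of the pairs described within libraries, Cpt1a to Crat was at 4.73 to 6.58 in Con, 2.69 to 3.51 in DSS, 5.44 to 5.68 in UA+DSS and 3.20 to 3.51 in DSS+UA. A ratio shows that the genes of a pair changed unequally, not which of them changed. These pairs were chosen after their values were seen and carry no test.

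**Figure D3:**
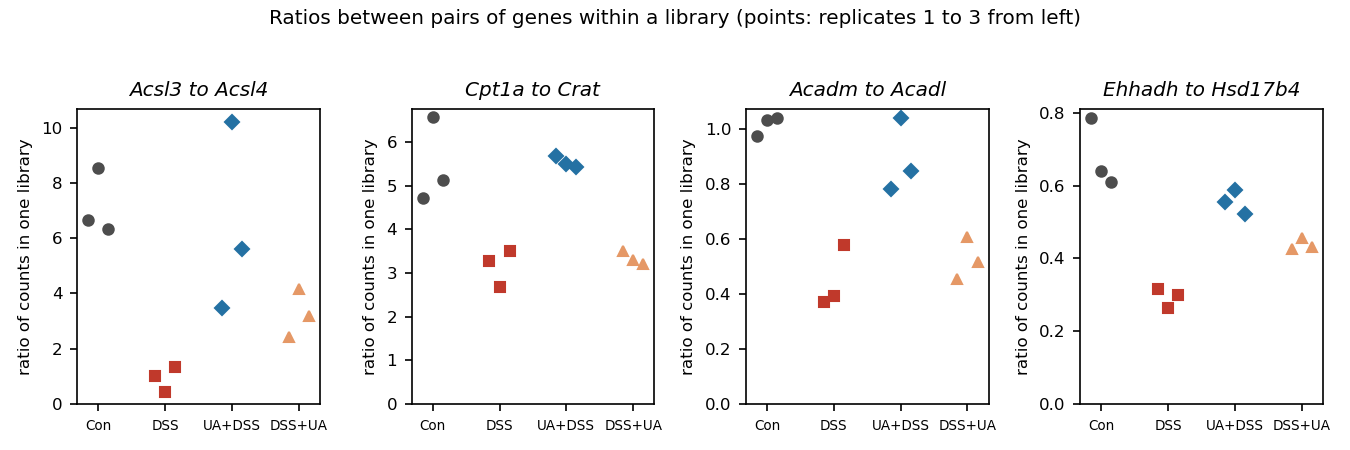
Count ratio of 4 pairs of genes within each library (y axis, from 0), with replicates 1 to 3 from left in each group (x axis). DSS has the lowest mean of the 4 groups for each of the 4 pairs, and DSS and DSS+UA overlap for Cpt1a to Crat and Acadm to Acadl.

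Decr2, the peroxisomal dienoyl-CoA reductase, was at 45.7, 56.1 and 44.8 CPM in the Con libraries, 26.5, 18.6 and 32.3 in DSS, 46.2, 69.2 and 56.3 in UA+DSS and 30.5, 43.4 and 41.4 in DSS+UA. Pex11a, a peroxin that drives the division of peroxisomes, was at 20.8, 34.5 and 25.5 CPM in the Con libraries, 14.6, 15.6 and 19.7 in DSS, 33.2, 47.0 and 35.3 in UA+DSS and 14.6, 17.8 and 17.1 in DSS+UA. DSS was below Con and UA+DSS without overlap for both. Decr2 gave log2 fold changes of -0.92 (SE 0.23, adjusted p = 0.0148) in DSS against Con and 1.15 (SE 0.23, adjusted p = 0.0126) in UA+DSS against DSS. Pex11a gave -0.70 (SE 0.22, adjusted p = 0.0357) and 1.21 (SE 0.22, adjusted p = 0.0101). In DSS+UA against DSS Pex11a was not called (-0.01, SE 0.22, adjusted p = 0.983), and it was 1.22 higher in UA+DSS than in DSS+UA (SE 0.22, adjusted p = 0.00822), a call kept in 21 other settings and lost with the position score (0.46, SE 0.33, adjusted p = 0.571).

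Scp2, a lipid carrier fused to a thiolase, was at 231, 245 and 206 CPM in the Con libraries, 157, 193 and 178 in DSS, 255, 283 and 250 in UA+DSS and 170, 258 and 232 in DSS+UA. It was raised in UA+DSS against DSS (0.58, SE 0.18, adjusted p = 0.0427), and 29.7% of its 50-base stretches are shared with Scp2-ps2 and Gm47162. Abcd3, the half-transporter of the peroxisomal membrane, was not called in any comparison, with 111, 278 and 183 CPM in Con and 229 to 243 in UA+DSS. Acaa1a, the main peroxisomal thiolase, was at 150, 171 and 129 CPM in the Con libraries, 79.7, 114 and 84.6 in DSS, 131, 151 and 128 in UA+DSS and 85.5, 138 and 99.5 in DSS+UA. Acaa1a was lowered in DSS against Con (-0.69, SE 0.21, adjusted p = 0.0306) and not called in UA+DSS against DSS (0.56, SE 0.21, adjusted p = 0.0808). A stretch of 290 exonic bases of Acaa1a overlaps Myd88 on the opposite strand. The counts of Myd88 were 43.7% of those of Acaa1a, and the use of strand in counting is not known.

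Acaa1b (chr9:119148023-119157093), the near-identical copy of Acaa1a (chr9:119339676-119350299), was at 0.0517, 2.16 and 1.18 CPM in the Con libraries, 1.20, 7.36 and 1.06 in DSS, 11.0, 14.2 and 6.97 in UA+DSS and 0.0527, 0.433 and 1.77 in DSS+UA. The 3 UA+DSS libraries were above every Con and DSS+UA library and overlapped DSS only through DSS 2, but the difference from DSS+UA was not called (log2 fold change 3.82, SE 1.22, adjusted p = 0.0553). The coding sequences of the pair have 1275 bases each with the stop codon, are 96.5% identical and share an unbroken run of 327 bases, so that a short read cannot always be assigned. Bases 718 to 837 counted from the start codon, from the GENCODE transcripts on GRCm38, are shown with the bases that differ in capitals.
Acaa1a: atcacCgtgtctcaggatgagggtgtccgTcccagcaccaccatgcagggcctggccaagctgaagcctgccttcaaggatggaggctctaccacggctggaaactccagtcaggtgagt
Acaa1b: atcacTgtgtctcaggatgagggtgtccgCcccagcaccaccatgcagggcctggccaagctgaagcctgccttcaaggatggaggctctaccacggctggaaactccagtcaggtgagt
After the second capital, no base in the window distinguishes the genes. How reads that match both were counted is not known here, so both values are uncertain.

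Per kilobase of exon, the levels of the 35 tested genes in Con ran from 98.7 CPM per kb for Etfa, 87.2 for Acaa2, 85.9 for Acadl and 83.1 for Ech1 down to 2.54 for Acsl1, 2.31 for Slc27a2 and 0.576 for Acaa1b. In DSS the order changed, with Acadl first at 84.6 CPM per kb, ahead of Etfa at 66.1, Scp2 at 50.6 and Acaa2 at 47.6. Acsl4 went from 5.27 CPM per kb in Con to 18.0 in DSS, close to Acsl3, which went from 47.0 to 20.4. These levels use the summed exon length of a gene in the annotation and not that of the transcripts in use.

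Ursolic acid before and during DSS was compared with Con to ask how far the genes were from the untreated level. In UA+DSS against Con, 0 of the 35 genes were called, as was 0.00566% of all genes (1 gene), with a median log2 fold change of 0.28 against -0.01 and 29 values above 0 (49.4% of all genes). At an unadjusted p under 0.05 there were 4 of 35 genes (12.1% of all genes), and DESeq2 and limma-voom called 0 of the 35 as well. The 4 were Acsl1 (0.45), Acaa1b (3.24), Hsd17b4 (0.55) and Pex11a (0.51), with adjusted p from 0.336 to 0.396. In DSS+UA against Con, Cd36, Acaa2 and Pex11a were lowered and 0 were raised (8.95% and 9.13% of all genes), with a median of -0.21 against -0.03, and 28 values were below 0. The values above 0 numbered 7, and 19 without Con 2 (median 0.02) or 16 without DSS+UA 1 (median -0.01). The count of calls was 0 without Con 3, DSS 1 or any one DSS+UA library (6 to 10 at an unadjusted p under 0.05) and 1 without Con 2, UA+DSS 1 or UA+DSS 3. Calls of all genes there split into 1613 raised and 1580 lowered with TMM, 1035 and 1557 by library size and 1192 and 1880 with upper-quartile factors.

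UA+DSS and DSS+UA were also compared directly. 5 genes were higher in UA+DSS, Cd36, Cpt1a, Acaa2, Ehhadh and Pex11a, and 0 were lower (7.54% and 9.23% of all genes), and 31 of 35 values were above 0 (50.8% of all genes) with a median of 0.53 against 0.01. UA+DSS lay above DSS+UA without overlap for 20 genes and below it for 1 (22.7% and 22.5% of all genes). Without UA+DSS 2 or DSS+UA 1 the count was 1, without UA+DSS 1 or DSS+UA 3 it was 2, and with the position score edgeR called 0 (2 at an unadjusted p under 0.05) with a median of -0.00 and 17 values above 0. Acaa2 differed by 1.03 (SE 0.22, adjusted p = 0.0141), Ehhadh by 0.95 (SE 0.24, adjusted p = 0.0228) and Cd36 by 0.92 (SE 0.25, adjusted p = 0.0298) on the log2 scale. Cd36 was lowered in DSS+UA against DSS, whereas the other 4 were raised in UA+DSS against DSS.

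Among the Con libraries, Con 1 had the highest position score and the lowest mean level of the set. This rests on 1 library, and its cause was not tested. Con 1, the library with the rectal-type score, was below both other Con libraries for 19 of the 35 genes (54.3%, against 37.9% of all genes) and above both for 3 (8.57%, against 42.8%). The 19 included Slc27a4, Acadvl, Hadha and Abcd3, whose values are given above. The mean log2 CPM of the 35 genes was 5.87 in Con 1 and 6.48 and 6.13 in the other Con libraries, 5.64 to 5.85 in DSS, 6.41 to 6.72 in UA+DSS and 5.60 to 6.13 in DSS+UA. DSS+UA and Con 1 had like scores, and DSS+UA 1 was lower than Con 1 while DSS+UA 2 and 3 were higher. DSS+UA 2 and 3, with scores of 4.48 and 5.06, had means of 6.13 and 6.11, and Con 3, with a score of -1.83, had 6.13.

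Marker lists of cell types were counted in the same comparisons. The 10 colonocyte markers had a median log2 fold change of -0.83 in DSS against Con, where 2 were lowered (20%, against 12.6% of all genes). Their median was 0.94 in UA+DSS against DSS, with 3 raised (30%, against 8.21%), and 0.77 in DSS+UA against DSS, with 2 raised (20%, against 2.54%). In DSS+UA against Con, 7 of the 10 were below 0, 3 were above 0 and none was called. Without overlap, 2 of the 10 (Slc26a3 and Aqp8) lay below Con in DSS+UA and 0 above it. In UA+DSS 1 of the 10 lay below Con without overlap, and in DSS 6 did. The 6 smooth muscle markers had medians of -1.0, 0.89 and -0.83 in the comparisons of DSS with Con, UA+DSS with DSS and DSS+UA with DSS, with 0 called by edgeR in each (1, 0 and 1 at an unadjusted p under 0.05). The 6 fibroblast markers had medians, in the same order, of 1.63, -1.66 and -1.65 and 5 raised, 4 lowered and 2 lowered. Smooth muscle markers did differ between UA+DSS and DSS+UA, where all 6 were higher in UA+DSS (median 1.73). Of these, 3 were called (Myh11, Des and Tagln) and all 6 had an unadjusted p under 0.05. The same 3 were lowered in DSS+UA against Con (median of the 6 markers -1.85), and 0 were called in UA+DSS against Con (median -0.02). In bulk tissue, fewer cells of a type and less RNA per cell cannot be told apart, and the part of any cell type in the values of the oxidation genes was not tested. Neutrophil markers summed to 0.998 to 2.14 CPM in Con, 600 to 17700 in DSS, 12.3 to 66.8 in UA+DSS and 125 to 682 in DSS+UA.

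**Figure D4:**
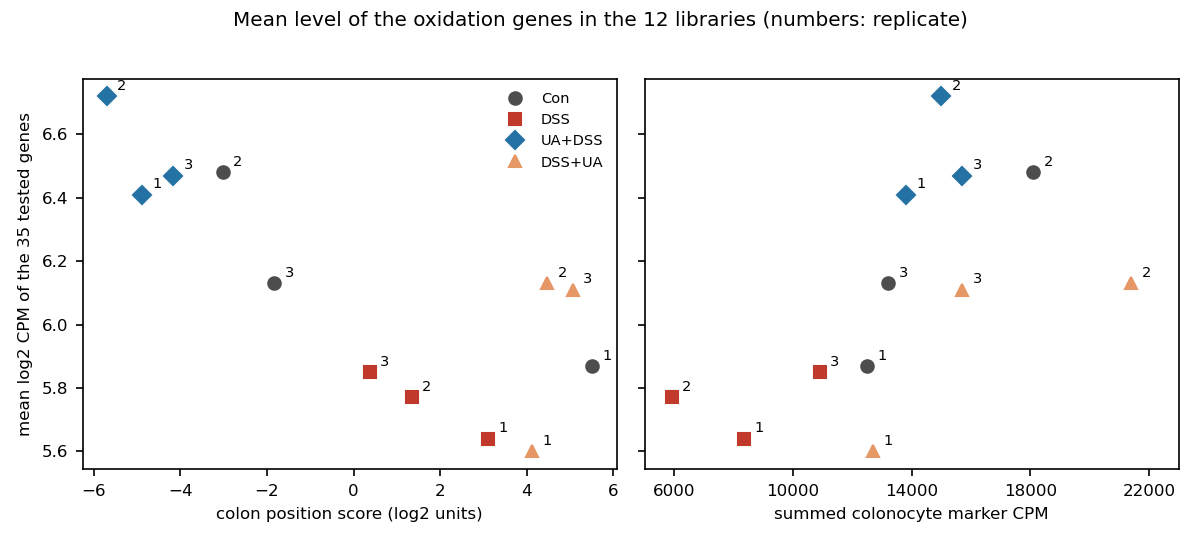
Mean log2 CPM of the 35 tested genes (y axis) in the 12 libraries against the colon position score (left, log2 units) and against the summed CPM of 10 colonocyte markers (right). Symbols mark the groups and numbers the replicates: the UA+DSS libraries have the lowest scores (-5.70 to -4.16) and means of 6.41 to 6.72, and the DSS libraries have the lowest colonocyte sums (5910 to 10900 CPM) and means of 5.64 to 5.85.

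Other genes of the pathway, from lists outside the 36, were counted for the same comparisons. Of 25 other tested mitochondrial oxidation genes, 12 were lowered (48.0%, against 12.6% of all genes) and 1 raised in DSS against Con. In UA+DSS against DSS 12 were raised (48.0%, against 8.21%) and 1 lowered. In DSS+UA against DSS edgeR called 0, with 11 at an unadjusted p under 0.05, as were 5274 of all 17658 genes. The smallest p-values in DSS against Con belonged to Echdc3, a hydratase-like protein (log2 fold change -3.00, SE 0.48, adjusted p = 0.00306), Mcee, the epimerase of odd-chain catabolism (-1.32, adjusted p = 0.00709), and Acss1, the mitochondrial acetyl-CoA synthetase (-1.29, adjusted p = 0.0109). Of 17 other peroxisomal genes, 5 were lowered in DSS against Con (29.4%, against 12.6% of all genes). In UA+DSS against DSS 7 were raised (41.2%, against 8.21%). In DSS+UA against DSS 1 was raised and 1 lowered (5.88% each way, against 448 and 883 of all 17658 genes). Acot8, a peroxisomal thioesterase, gave -0.80 (adjusted p = 0.0110), 0.64 (adjusted p = 0.0357) and 0.82 (adjusted p = 0.0311) in these comparisons. Eci3 (-1.61, adjusted p = 0.0301) and Phyh, the phytanoyl-CoA hydroxylase (-0.74, adjusted p = 0.0351), were lowered in DSS against Con.

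Of the 16 peroxins tested, 4 were lowered in DSS against Con, 2 raised in UA+DSS and 1 raised in DSS+UA against DSS, which is 25.0%, 12.5% and 6.25% against 12.6%, 8.21% and 2.54% of all genes. Pex6 (-0.63, adjusted p = 0.0267) and Pex16 (-0.66, adjusted p = 0.0310), which serve the import of peroxisomal proteins and the making of the membrane, were lowered in DSS against Con. Of the 10 other uptake and activation genes tested, 2 were raised and 2 lowered in DSS against Con, 1 was raised and 2 were lowered in UA+DSS against DSS, and 1 each in DSS+UA against DSS. In DSS against Con these are 20% each way, against 13.9% and 12.6% of all genes. In UA+DSS against DSS they are 10% raised and 20% lowered, against 8.21% and 10.5%. In DSS+UA against DSS they are 10% each way, against 448 raised and 883 lowered of all 17658 genes. Fabp5, a fatty acid binding protein of epidermis and macrophages, rose in DSS against Con (2.58, SE 0.37, adjusted p = 0.00229), as did Acsbg1 (3.50, SE 0.71, adjusted p = 0.00673), and the carrier Slc27a1 fell by 1.06 (adjusted p = 0.0155).

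Of 15 tested regulators of oxidation, 4 were lowered in DSS against Con (26.7%, against 12.6% of all genes) and 8 raised in UA+DSS against DSS (53.3%, against 8.21%). In DSS+UA against DSS 1 was raised (6.67%, against 2.54%), and 7 were higher in UA+DSS than in DSS+UA (46.7%, against 7.54%). Ppargc1a, which encodes PGC-1α, was at 30.8, 37.6 and 31.7 CPM in Con, 10.8, 6.41 and 8.29 in DSS, 19.8, 71.8 and 37.3 in UA+DSS and 14.1, 18.9 and 20.2 in DSS+UA. DSS was the lowest group without overlap, with -1.97 (SE 0.39, adjusted p = 0.00608) against Con, 2.33 (SE 0.39, adjusted p = 0.00972) for UA+DSS and 1.06 (SE 0.38, adjusted p = 0.0970) for DSS+UA against DSS. Ppara was at 2.33, 13.1 and 11.2 CPM in Con, 1.54, 1.80 and 3.59 in DSS, 20.3, 38.5 and 18.2 in UA+DSS and 1.00, 3.28 and 2.66 in DSS+UA. It was lowered in DSS against Con (-1.94, SE 0.64, adjusted p = 0.0451) and raised in UA+DSS against DSS (3.47, SE 0.67, adjusted p = 0.0121), with Con 1 inside the range of DSS. Sirt3, the mitochondrial deacetylase, and Ppargc1b were lowered in DSS against Con (-1.14, adjusted p = 0.00432, and -1.07, adjusted p = 0.0176). Pparg, the PPAR of adipocytes and colon epithelium (2.83-fold, adjusted p = 0.0392), and Hnf4a, an epithelial nuclear receptor (log2 fold change 1.13, adjusted p = 0.0362), were raised in UA+DSS against DSS and not called in DSS against Con (adjusted p = 0.187 and 0.0667).

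Of 7 tested PPAR targets outside oxidation, 1 was raised in DSS against Con, 1 raised in UA+DSS against DSS and 1 lowered in DSS+UA against DSS. Each is 14.3% of the list, against 13.9%, 8.21% and 883 of 17658 genes in the same order. In DSS against Con 4 values were above 0 and 3 below, and in DSS+UA against DSS 2 were above and 5 below. In UA+DSS 5 of 7 were above 0 against DSS (median 0.80). Against Con all 7 were above 0 in UA+DSS (median 1.07), with 0 called. Angptl4, an inhibitor of lipoprotein lipase, rose in DSS against Con (3.99, SE 0.67, adjusted p = 0.00371) and was lower in DSS+UA than in DSS (-2.34, SE 0.62, adjusted p = 0.0468). Cyp4f14, a fatty acid hydroxylase, was not called in DSS against Con, UA+DSS against DSS or DSS+UA against DSS (adjusted p = 0.269, 0.0885 and 0.946).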

How the data were processed

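RNA of 12 colon tissue samples, 3 from each of 4 groups, was sequenced. Per the study's methods, the authors mapped reads to GRCm38 and obtained read counts with HISAT2, and they deposited whole-number counts per Ensembl gene, not normalized. The version, the annotation release, strand use and the handling of ambiguous reads are not stated in those sources. FastQC and Cuffdiff are also named in the submitters' processing notes. Of 54532 genes, 54495 carried a name in GENCODE vM21, and the 37 others held 0.00364% of counts. With edgeR 4.0.16 (R 4.3.3), filterByExpr left 17658 genes (99.8% of counts), which were scaled by TMM (factors 0.871 to 1.09) and fitted by 1 quasi-likelihood model over the 12 libraries, with Benjamini-Hochberg adjustment over these genes (threshold 0.05). It was tested on simulated data. log2 CPM used a prior count of 2.

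All members are accounted for, and values per library are given for those called in a comparison with DSS and for Cpt1a, Cpt1b, Acadl and Cd36. Of each context list, counts and the 3 smallest p in DSS against Con are given, with Ppara, Pparg, Ppargc1a and Hnf4a. Some genes that this rule names are not reported here. The members, lists and position score were chosen with earlier results of these data known. Groups and replicate numbers came from the labels, and neither the labels nor the methods say outright that replicates are separate animals, so p-values measure the spread between these samples, which may be technical.

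Alternatives were library-size, upper-quartile and relative log expression scaling, no filter, at least 10 counts in every library, DESeq2 1.42.0, limma-voom (limma 3.58.1), fitting the compared groups alone, a replicate block, the position score and leaving out each library.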

Additional observations from a re-analysis of the deposited data

Results flagged for a closer look

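5 genes differed between early and late ursolic acid by a test of the difference itself, the contrast of UA+DSS with DSS+UA in edgeR's quasi-likelihood fit with Benjamini-Hochberg adjustment, in which the shared DSS libraries cancel. The log2 fold change against DSS in UA+DSS minus that in DSS+UA was 1.22 for Pex11a, 1.03 for Acaa2, 0.95 for Ehhadh, 0.92 for Cd36 and 0.85 for Cpt1a. Every UA+DSS library was above every DSS+UA library for each of the 5 genes, as for 22.7% of all genes. The same libraries gave the calls, so this adds no support to them. The position score of the colon did not overlap between these groups. Ursolic acid was given for 7 days in UA+DSS and for 4 days in DSS+UA. The parts of position, start and number of days of treatment in the differences cannot be told apart.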

How the results depend on the processing

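Of the genes called at a main value, 5 of 14 in DSS against Con, 2 of 20 in UA+DSS against DSS, 0 of 4 in DSS+UA against DSS, 1 of 5 in UA+DSS against DSS+UA and 0 of 3 in DSS+UA against Con were called in every alternative but the position score, and with it 14, 0, 2, 0 and 1 were kept. Where a count moved, the cause was not tested.

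Leaving out 1 library at a time, members called ranged from 5 to 16 in DSS against Con, 2 to 24 in UA+DSS against DSS, 0 to 4 in DSS+UA against DSS, 1 to 7 in UA+DSS against DSS+UA, 0 to 0 in UA+DSS against Con and 0 to 3 in DSS+UA against Con. All genes called ranged from 2894 to 4708, 183 to 4112, 25 to 1825, 560 to 3893, 0 to 4 and 1062 to 4057 in the same order. A fit of only the groups compared called 7 members in DSS against Con, 2 in DSS+UA against DSS, 11 in UA+DSS against DSS+UA and 1 in DSS+UA against Con, and 2002, 1920, 404, 0 and 1996 genes in DSS against Con, UA+DSS against DSS, DSS+UA against DSS, UA+DSS against Con and DSS+UA against Con. DESeq2 called 7 members and 3107 genes in DSS+UA against DSS, 8 members in UA+DSS against DSS+UA, 5 in DSS+UA against Con and 374 genes in UA+DSS against Con. limma-voom called 1 member in DSS+UA against Con and 0 genes in UA+DSS against Con. Without a filter 882 genes were called in DSS+UA against DSS, 0 genes in UA+DSS against Con and 0 members in DSS+UA against Con, and with at least 10 counts in every library 0 genes in UA+DSS against Con. The position score as a covariate gave 0 members and 3 genes in UA+DSS against DSS, 2 and 199 in DSS+UA against DSS, 0 and 0 in UA+DSS against DSS+UA and 0 genes in UA+DSS against Con.

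Of 4614 values of single genes under an alternative, 142 had the other sign than the main value, 48 of them in DSS+UA against Con, and none belonged to a gene called at the main value. 2 of the 142 were called with the other sign. Slc27a2 in DSS against Con was 0.33, ran from -2.81 (without DSS 2) to 0.89 when 1 library was left out, and was -1.34 by limma-voom and -0.73 with the replicate block, and Acadvl in DSS+UA against Con was 1.28 with the position score (SE 0.37, edgeR adjusted p = 0.0468) in place of -0.06.

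Replicate numbers did not pair the libraries. Deviations from the group mean of libraries with the same number correlated at -0.216 to 0.187 (median 0.0412, against -0.0228 for other numbers), and 5 of 12 libraries correlated best with their own number. With the replicate block, 2 members and 552 genes were called in DSS+UA against DSS, and no other count of calls moved by more than 1.5 times.

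With 3 libraries a group, a difference that missed the threshold is not shown to be absent, and for Cpt1b, at 0 to 0.651 CPM, none was detectable at this depth.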
